A study of Mus musculus with 30 samples.

Results

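The genes described here are 32 transcripts that mark the distal part of the mouse nephron: the thick ascending limb of the loop of Henle, the distal convoluted and connecting tubule, and the principal and intercalated cells of the collecting duct. They were chosen as a list of symbols, and every probe annotated to a listed symbol was read on each kidney array. The list matched 55 of 25697 probes and 31 of the 32 genes, out of 16593 genes with a probe. No probe carried the symbol of Klhl3, whose product marks WNK kinases for degradation.

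The study took kidney, brain and heart from 10 male wild-type C57BL/6JRj mice and measured RNA on Illumina BeadChip arrays, and each mouse gave every tissue. Of these, 4 mice were 25 months old and had received rapamycin, an inhibitor of the growth kinase mTOR, from 13 months of age and for more than 12 months. Another 2 mice were controls of 25 months, and 4 were controls of 25 weeks. The labels state random allocation to rapamycin or to vehicle. The sample titles conflict with the stated ages, because they mark the 25-month controls with the letter y, and the source names and ages were used for grouping. The 25-month controls enter both the age comparison and the rapamycin comparison, so the values of these comparisons are not independent.

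In the thick ascending limb, NaCl is reabsorbed without water by the cotransporter NKCC2, while potassium recycles through the channel ROMK and claudins carry calcium and magnesium between cells. The distal convoluted tubule takes up NaCl through the cotransporter NCC, which WNK kinases and the kinase SPAK switch on. In the collecting duct, principal cells take up sodium through the channel ENaC, secrete potassium, and take up water through aquaporins under vasopressin. Intercalated cells secrete acid or base. In whole kidney RNA, fewer cells of a type and less RNA per cell cannot be told apart.

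The kidney array of rapamycin mouse 2 stood apart from the other 9. It detected 9989 probes against 11962 to 12777, its median intensity before normalisation was 100.8 against 117.5 to 130.7, and its probe values correlated with those of other kidneys at a median of 0.858 against 0.982 to 0.992. After normalisation it was the lowest of the 10 kidney arrays for 18 of the 28 tested members and the highest for 4. Over all tested probes it was lowest for 43% and highest for 40.1%. Each comparison is therefore given with all 10 kidney arrays and with the other 9. No pair of kidney arrays held identical values.

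Levels are normalised log2 intensities from the 10 arrays, given in the order of the mouse numbers within a group, and they can be compared between arrays for 1 probe but not between probes. Differences come from a limma fit over all tested probes, with the standard error (SE) after ±. With 9 arrays, normalisation and fit were repeated without rapamycin mouse 2. A gene passed the test where its p, adjusted by Benjamini-Hochberg across the whole set of tested probes, was under 0.05, and a gene with several probes is represented by the brightest. Mouse identifiers in the labels show that the replicates of a group are different mice, so the errors measure the spread between mice.

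The kidneys carried the transcripts of all 4 segments. The representing probe was detected on all 10 kidney arrays for 24 of the 31 genes, against 6 on all brain arrays and 5 on all heart arrays. For 18 genes it was detected on no brain array and for 17 on no heart array. Of the list, 14 genes were detected on 8 or more kidney arrays and on fewer than 2 arrays of each other tissue. Calb1 (the calcium buffer calbindin), Cldn8 (a claudin of the collecting duct) and Avpr2 (the vasopressin receptor) were detected on 0 kidney arrays. That left 28 genes for the tests, each detected on at least 2 kidney arrays.

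Tfap2b, a member of the list, encodes the transcription factor AP-2 beta, so the promoters of members were searched for the AP-2 motif GCCNNNGGC. The windows, from RefSeq on GRCm38.p6, reach from 250 bases before to 50 bases after a gene's start, and 24 of the 32 genes matched. Both strands were searched, and the motif is its own reverse complement. It occurred in the windows of 9 of the 24 matched members, and in 16.6% of the 32851 promoters in the table. Among the holders were 4 of the 10 members that passed as higher in 25-month controls with 9 arrays. Foxi1, Stk39, Trpm6, Wnk1 and Wnk4 hold the motif too and did not pass. Below are the windows of the 4 members that passed the test for a higher level in 25-month controls and hold the motif (in capitals), followed by Aqp2 and Kcnj1, which passed too and hold none. The windows lie at chr7:119479213-119479512, minus strand, for Umod; chr16:26462885-26463184, plus strand, for Cldn16; chr8:94328958-94329257, plus strand, for Slc12a3; and chr6:117937286-117937585, minus strand, for Fxyd4. Those of Aqp2 and Kcnj1 lie at chr15:99578806-99579105, plus strand, and at chr9:32393735-32394034, plus strand. The first motif base stood 39 bases after the start in Umod and 2, 73 and 53 bases before it in Cldn16, Slc12a3 and Fxyd4.
Umod: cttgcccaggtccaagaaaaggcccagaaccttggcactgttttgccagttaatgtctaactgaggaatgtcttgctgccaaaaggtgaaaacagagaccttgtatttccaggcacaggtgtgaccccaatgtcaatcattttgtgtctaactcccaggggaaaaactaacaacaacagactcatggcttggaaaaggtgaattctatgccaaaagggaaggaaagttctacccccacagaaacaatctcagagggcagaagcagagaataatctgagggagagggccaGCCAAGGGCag
Cldn16: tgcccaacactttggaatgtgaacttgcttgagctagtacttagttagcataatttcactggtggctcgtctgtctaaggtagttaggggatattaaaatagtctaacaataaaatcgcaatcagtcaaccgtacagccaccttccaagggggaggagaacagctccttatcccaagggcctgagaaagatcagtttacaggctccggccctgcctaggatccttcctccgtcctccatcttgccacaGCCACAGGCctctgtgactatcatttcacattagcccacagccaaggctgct
Slc12a3: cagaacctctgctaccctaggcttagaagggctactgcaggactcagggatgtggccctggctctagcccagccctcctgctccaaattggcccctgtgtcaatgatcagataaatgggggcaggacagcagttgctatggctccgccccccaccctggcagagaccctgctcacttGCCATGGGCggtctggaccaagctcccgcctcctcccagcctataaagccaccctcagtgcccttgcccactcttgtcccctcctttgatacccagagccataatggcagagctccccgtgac
Fxyd4: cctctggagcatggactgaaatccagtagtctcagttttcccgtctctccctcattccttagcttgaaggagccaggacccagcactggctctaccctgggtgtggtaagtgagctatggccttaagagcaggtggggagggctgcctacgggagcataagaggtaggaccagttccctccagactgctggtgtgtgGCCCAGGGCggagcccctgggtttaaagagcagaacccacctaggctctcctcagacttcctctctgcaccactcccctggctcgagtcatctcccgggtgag
Aqp2: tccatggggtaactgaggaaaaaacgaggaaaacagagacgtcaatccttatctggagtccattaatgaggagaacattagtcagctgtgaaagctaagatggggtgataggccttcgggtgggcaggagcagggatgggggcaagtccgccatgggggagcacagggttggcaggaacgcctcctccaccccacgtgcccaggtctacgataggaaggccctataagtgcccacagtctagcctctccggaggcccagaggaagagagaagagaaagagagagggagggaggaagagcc
Kcnj1: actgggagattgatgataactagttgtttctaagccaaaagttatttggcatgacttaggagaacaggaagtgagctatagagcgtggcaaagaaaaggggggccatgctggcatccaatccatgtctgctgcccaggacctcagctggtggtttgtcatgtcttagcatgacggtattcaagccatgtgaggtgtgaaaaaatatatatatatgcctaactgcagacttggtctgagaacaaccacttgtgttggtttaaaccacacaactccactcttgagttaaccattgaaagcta
The other 6 of the 10 members that passed in that comparison hold no AP-2 motif in this window. The cyclic AMP response element TGACGTCA was found in 0 of the 24 members, with 1.79% of all promoters holding it, and the HNF1 consensus motif likewise in 0, with 0.0609% holding it. A match describes letters in a window and shows no binding, and whether the motif goes with the higher level was not tested.

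The age comparison set 25-month controls against 25-week controls. Without rapamycin mouse 2, 10 of the 28 tested members passed as higher in 25-month controls (35.7%) and 0 as lower, where 5.33% of all tested probes were higher and 4.3% lower. The 10 were Umod, Slc12a1, Kcnj1, Cldn16, Ptger3 and Tfap2b of the thick limb, Slc12a3 of the distal convoluted tubule, and Aqp2, Aqp3 and Fxyd4 of principal cells. With all 10 arrays, 0 members passed, where 0.0942% of all tested probes did. At an unadjusted p under 0.05 there were then 6 of 28 members, where 6.34% of probes reached it. The control arrays are the same in both fits, and the differences moved little (Aqp2 1.16 with 10 arrays and 1.15 with 9), but the SE of Aqp2 was 0.26 with 10 arrays and 0.18 with 9. The median difference over the 28 members was 0.26 with either set, against -0.02 over all tested probes.

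In the thick limb, 6 of 10 members passed as higher in 25-month controls, and the median difference of the 10 was 0.70. Slc12a1 encodes NKCC2, the salt transporter of this segment. It measured 12.59, 10.52, 11.99 and 11.62 in rapamycin mice, 12.92 and 12.92 in 25-month controls, and 12.20, 11.85, 12.23 and 11.82 in 25-week controls. Both 25-month controls lay above every other array. Slc12a1 was 1.86-fold higher in 25-month controls than in 25-week controls (log2 0.90 ± 0.23, limma adjusted p = 0.032, 9 arrays). All 4 of its probes passed, with differences of 0.81 to 1.22.

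Kcnj1, which encodes the potassium channel ROMK, measured 6.66, 7.22, 6.42 and 6.63 in rapamycin mice, 7.36 and 7.38 in 25-month controls, and 6.54, 6.65, 6.76 and 6.44 in 25-week controls. The 25-month controls were highest and close to each other. Before normalisation the intensity of rapamycin mouse 2 was 133.7, the lowest of the 10, and after it the third highest. Kcnj1 was 1.71-fold higher in 25-month controls than in 25-week controls (log2 0.77 ± 0.12, limma adjusted p = 0.0050, 9 arrays).

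Umod encodes uromodulin, the protein this segment secretes into urine. Its level was 13.75, 13.03, 13.57 and 13.39 in rapamycin mice, 13.83 and 13.89 in 25-month controls, and 13.39, 13.43, 13.45 and 13.23 in 25-week controls. The 25-month controls lay above all others, and rapamycin mouse 1 came next. The difference between 25-month and 25-week controls was log2 0.48 ± 0.12 (1.39-fold, limma adjusted p = 0.032, 9 arrays), and both Umod probes passed.

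Cldn16, a claudin that lets magnesium and calcium pass between cells, measured 8.81, 7.70, 8.24 and 7.78 in rapamycin mice, 9.10 and 9.14 in 25-month controls, and 8.13, 8.07, 8.24 and 7.87 in 25-week controls. Both 25-month controls lay above every other array, and rapamycin mouse 1 came closest. Cldn16 was 2.04-fold higher in 25-month than in 25-week controls (log2 1.03 ± 0.22, limma adjusted p = 0.017, 9 arrays), with no overlap between these groups. Ptger3, the prostaglandin E2 receptor EP3, measured 6.29, 5.49, 6.29 and 5.82 in rapamycin mice, 6.95 and 7.05 in 25-month controls, and 6.19, 5.98, 5.84 and 5.86 in 25-week controls. The 25-month controls were again the highest, by log2 1.04 ± 0.16 over 25-week controls (2.06-fold, limma adjusted p = 0.0043, 9 arrays).

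Tfap2b measured 8.58, 7.93, 8.30 and 8.004 in rapamycin mice, 8.94 and 8.85 in 25-month controls, and 8.20, 8.18, 8.15 and 7.86 in 25-week controls. Its 25-month controls lay above the rest, and the difference from 25-week controls was log2 0.79 ± 0.16 (limma adjusted p = 0.013, 9 arrays). Of its 4 probes 2 passed, and all 4 had positive differences. The remaining thick limb members did not pass: Egf, the precursor of epidermal growth factor, differed by 0.62 ± 0.22 (limma adjusted p = 0.10), Defb1, a defensin, by 0.22, Bsnd, the barttin subunit of chloride channels, by 0.12, and the representing probe of Cldn10 by -0.14.

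**Figure D1:**
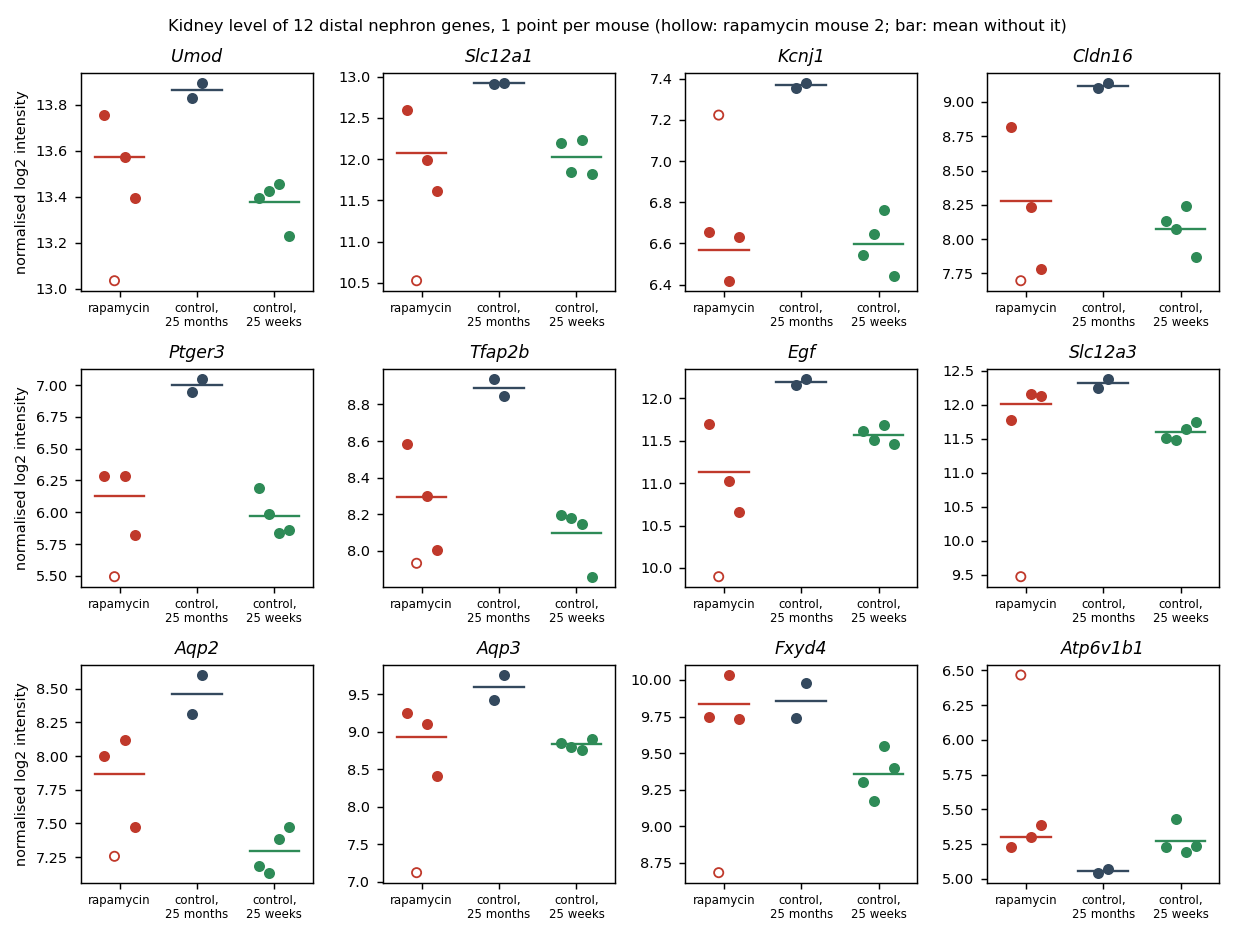
Normalised log2 intensity (vertical axis, its own scale in each panel) of 12 genes in each kidney, by group; bars are means without rapamycin mouse 2, drawn hollow. Both 25-month controls lie above the other arrays for Umod, Slc12a1, Kcnj1, Cldn16, Ptger3, Tfap2b, Egf, Slc12a3, Aqp2 and Aqp3, not for Fxyd4, and below them for Atp6v1b1. The signal of Atp6v1b1 lay near background.

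Cldn10 was the member whose probes disagreed most. Claudin-10 isoforms differ between proximal tubule and thick limb, as known from mouse. Of its 4 probes, 1 fell in 25-month controls by 0.90 ± 0.16 on the log2 scale (limma adjusted p = 0.0075, 9 arrays), and another differed by 1.85 ± 0.54 (adjusted p = 0.052). That second probe measured 9.76, 5.41, 7.80 and 7.22 in rapamycin mice, 10.55 and 10.19 in 25-month controls, and 9.03, 8.57, 8.47 and 7.93 in 25-week controls. Its 25-month controls were the highest, while the probe that fell measured 9.46 and 9.51 there against 10.25 to 10.60 in 25-week controls. By annotation, the probe that fell and the second probe belong to different reference transcripts. The second probe shares its transcript with the representing probe, which did not rise. Whether each probe reads only its annotated transcript was not tested.

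**Figure D2:**
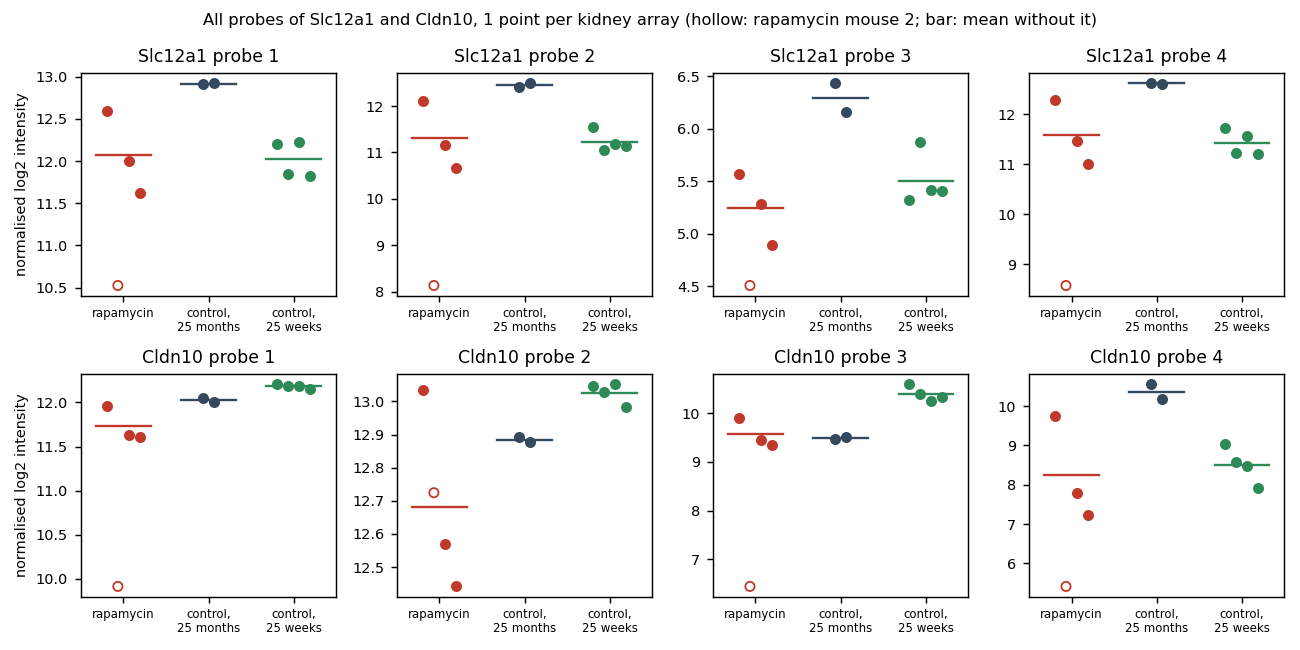
Normalised log2 intensity of the 4 Slc12a1 probes (upper panels) and the 4 Cldn10 probes (lower panels) in each kidney, by group. All Slc12a1 probes were higher in 25-month controls, by 0.81 to 1.22, whereas the Cldn10 differences were -0.15, -0.14, -0.90 and 1.85 from left to right.

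In the distal convoluted and connecting tubule, 1 of 7 tested members passed. Slc12a3, which encodes NCC, the target of thiazide diuretics, measured 11.77, 9.47, 12.15 and 12.13 in rapamycin mice, 12.25 and 12.37 in 25-month controls, and 11.51, 11.48, 11.64 and 11.74 in 25-week controls. The 25-month controls were the highest arrays, rapamycin mice 1, 3 and 4 lay between the control groups, and rapamycin mouse 2 lay far below all others. Slc12a3 was 1.65-fold higher in 25-month than in 25-week controls (log2 0.72 ± 0.13, limma adjusted p = 0.0093, 9 arrays), and all 3 probes passed. Of these, 1 that does not represent the gene was also detected on 10 brain and 10 heart arrays. Whether that probe reads only Slc12a3 was not tested. The regulators of NCC did not pass: Stk39, which encodes SPAK, differed by 0.34 ± 0.11 (limma adjusted p = 0.077), Wnk4 by 0.27 ± 0.19 and Wnk1 by 0.14 ± 0.12. Trpm6, the magnesium channel, differed by 0.24 and Trpv5, the calcium channel, by 0.02. The brightest probe of Fxyd2, the gamma subunit of the sodium pump, differed by -0.10 ± 0.09, but another of its 3 probes was higher by 0.69 ± 0.11 (limma adjusted p = 0.0049).

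Among principal cell genes, 3 of 7 passed. Aqp2, the vasopressin-regulated water channel, measured 8.003, 7.256, 8.117 and 7.474 in rapamycin mice, 8.31 and 8.60 in 25-month controls, and 7.18, 7.13, 7.39 and 7.48 in 25-week controls. Both 25-month controls exceeded every other array, and Aqp2 was 2.22-fold higher in them than in 25-week controls (log2 1.15 ± 0.18, limma adjusted p = 0.0050, 9 arrays). Aqp3, the water channel of the basolateral membrane, measured 9.25, 7.12, 9.10 and 8.41 in rapamycin mice, 9.42 and 9.75 in 25-month controls, and 8.85, 8.80, 8.76 and 8.91 in 25-week controls. Its 25-month controls were the highest too, by log2 0.75 ± 0.20 over 25-week controls (limma adjusted p = 0.038). Fxyd4, a regulator of the sodium pump, measured 9.75, 8.68, 10.03 and 9.73 in rapamycin mice, 9.74 and 9.98 in 25-month controls, and 9.30, 9.18, 9.55 and 9.40 in 25-week controls. It was higher in 25-month than in 25-week controls by 0.50 ± 0.14 (limma adjusted p = 0.045), and rapamycin mice 1, 3 and 4 lay in the range of the 25-month controls or within 0.1 of it.

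The ENaC subunits did not pass: Scnn1a differed by 0.28 ± 0.21, Scnn1g by 0.20 ± 0.14 and Scnn1b by -0.08 ± 0.20. Hsd11b2, the enzyme that keeps glucocorticoids off the mineralocorticoid receptor, differed by 0.03 ± 0.13. All 95% intervals of these 4 differences included 0. Whether the ENaC genes differed from the water channel genes in their response was not tested.

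Intercalated cell genes gave 0 of 4 calls. Slc26a4, the bicarbonate exchanger pendrin, differed by -0.45 ± 0.17 (limma adjusted p = 0.12), Foxi1, the transcription factor of these cells, by -0.31 ± 0.12 (adjusted p = 0.14) and Atp6v1b1, a proton pump subunit, by -0.23 ± 0.11 (adjusted p = 0.21). For the representing probes of these 3, the 2 control groups did not overlap, with 25-month controls lower. Of all tested probes, 19.6% were lower without overlap. Foxi1 has 3 probes, and the drop was not shared by all. On its other 2 probes the control groups overlapped in the levels from 10 arrays, and 1 of them had a positive difference. Atp6v1b1 measured 5.23, 6.47, 5.30 and 5.38 in rapamycin mice, 5.05 and 5.07 in 25-month controls, and 5.23, 5.43, 5.20 and 5.23 in 25-week controls. Its 25-month controls were the lowest of all arrays and rapamycin mouse 2 the highest. Slc4a1, the anion exchanger AE1, also made by red cell precursors, differed by 0.03 ± 0.12. Of the 3 erythroid marker genes tested, 1 passed as lower in 25-month controls with 9 arrays, where 4.3% of all tested probes did. The part of red cells in the Slc4a1 value was not tested.

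Over all segments, 12 of 28 members were higher without overlap and 5 lower in 25-month than in 25-week controls, where 17.7% of all tested probes were higher and 19.6% lower in that way. Across the 9 arrays, both 25-month controls lay above all 7 others for 11 members, where 5.37% of probes did, and below them for 2, where 6.03% did. The 2 were Foxi1 and Atp6v1b1, with the limits given above. With 25-month control 1 left out only Aqp2 still passed, where 0.489% of all tested probes were then called higher, and with 25-month control 2 left out 5 members did, where 5.91% were. Aqp2 passed in all 9 refits that left out 1 mouse (limma adjusted p 0.0020 to 0.043), Kcnj1, Ptger3, Tfap2b and Slc12a3 in 8 of the 9, and Umod and Aqp3 in 3.

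Some marker lists of other cell types moved along with age when the 9 arrays were used. As beside the members, the shares to read these counts against are 5.33% of all tested probes higher and 4.3% lower. Macrophage markers were higher in 25-month controls for 11 of 13 tested genes, with a summed level of 4696 to 8576 in 25-month controls and 2380 to 3321 in 25-week controls. Proximal tubule markers were lower for 7 of 20 and higher for 1, with a summed level of 63174 to 81540 in 25-month controls and 90396 to 95017 in 25-week controls. Tubular injury markers were higher for 3 of 7, and fibroblast and matrix markers for 2 of 8. The fibroblast and matrix list summed to 2017 to 2237 in 25-month controls and 1213 to 1362 in 25-week controls. Neutrophil markers were higher for 2 of 3, with a summed level of 650.2 in 25-month control 1, 116.8 in 25-month control 2 and 39.5 to 53.1 in 25-week controls. Summed levels come from the 10-array normalisation and filter, so they cover 4 neutrophil genes and 9 fibroblast and matrix genes. The granule genes Ngp, Camp and Mpo were detected on 0 kidney arrays. Endothelial markers gave 0 of 8 calls, adipocyte markers 0 of 4 and urothelium markers 0 of 5. Podocyte markers gave 0 of 3 calls, and their summed level was 646 to 649 in 25-month controls and 460.0 to 538 in 25-week controls. With all 10 arrays, 1 of 13 macrophage markers passed, and 0 of the proximal tubule, tubular injury, fibroblast and matrix, neutrophil and podocyte lists, where 0.0942% of all tested probes did. The parts of these changes in the differences of the distal genes were not tested.

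Of the 8 adrenal cortex markers, only Cyp11b2 was detected on 2 or more kidney arrays and so tested, while Cyp11a1 and Cyp11b1 were each detected on 1 array and Star on 0. Cyp11b1 measured 5.52 in 25-month control 1 and 4.28 to 4.42 on all other kidney arrays. The part of adrenal tissue in that mouse's values was not tested.

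**Figure D3:**
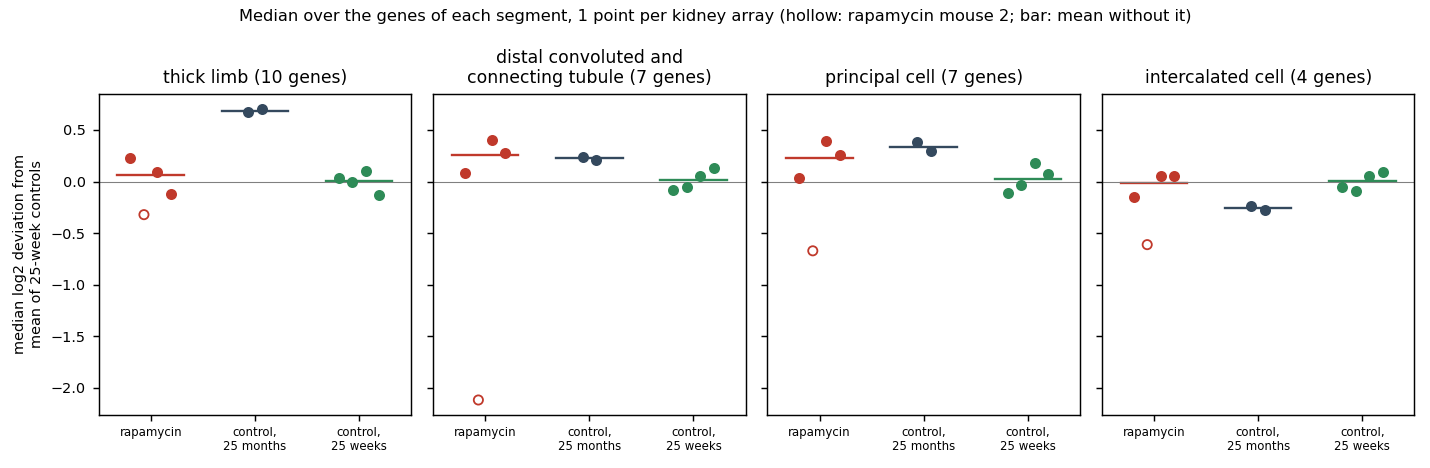
Median over the tested genes of each segment of the log2 deviation from the mean of the 25-week controls, 1 point per kidney array; bars are means without rapamycin mouse 2, drawn hollow. The thick limb value was 0.67 and 0.70 in the 25-month controls and -0.13 to 0.11 in the 25-week controls, and the hollow point of the distal convoluted and connecting tubule lies at -2.12.

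The rapamycin comparison set treated mice against controls of the same age. With 10 and with 9 arrays alike 0 of the 28 members passed, as did 0% of all tested probes. Among the members, 8 reached an unadjusted p under 0.05 with 10 arrays and 10 with 9 arrays, where 3.03% and 11.8% of all tested probes did. With 9 arrays, all 10 thick limb differences were negative (median -0.69), where 51.5% of all tested probes had a positive difference. For 7 of these 10, the rapamycin mice lay below both 25-month controls, where 11.6% of all tested probes were lower without overlap.

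The same 2 control mice of 25 months set both the age and the rapamycin differences. Egf, with the levels 11.70, 9.90, 11.03 and 10.66 in rapamycin mice, 12.15 and 12.23 in 25-month controls, and 11.62, 11.51, 11.68 and 11.46 in 25-week controls, had the most negative difference of the members, -1.06 ± 0.23 (95% interval -1.57 to -0.55, limma adjusted p = 0.19, 9 arrays). Its rapamycin values spread over a wide range and the control groups over a narrow one. Ptger3 differed by -0.88 ± 0.16 (-1.24 to -0.52, limma adjusted p = 0.17), Slc12a1 by -0.85 ± 0.24 (-1.37 to -0.33, adjusted p = 0.24), Cldn16 by -0.83 ± 0.23 (-1.34 to -0.32, adjusted p = 0.24) and Kcnj1 by -0.80 ± 0.13 (-1.08 to -0.52, adjusted p = 0.17). Tfap2b differed by -0.59 ± 0.16 (limma adjusted p = 0.24) and Umod by -0.28 ± 0.13 (adjusted p = 0.42).

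Rapamycin mouse 1 was closest to the 25-month controls in this segment. Its median deviation from the 25-week controls over the 10 thick limb genes was 0.23, against 0.09 in rapamycin mouse 3, -0.12 in rapamycin mouse 4 and 0.67 and 0.70 in the 25-month controls. With rapamycin mouse 1 left out as well, Cldn16, Egf, Kcnj1, Ptger3 and Slc12a1 passed as lower in rapamycin mice (limma adjusted p 0.029 for Cldn16, 0.012 for Egf, 0.031 for Kcnj1, 0.039 for Ptger3 and 0.031 for Slc12a1), with 2 treated mice left. In that fit 155 of 13575 tested probes passed, with 0.796% of the tested probes lower and 0.346% higher. Leaving out the treated mouse nearest the 25-month controls widens these differences, so the fit gives no separate support. With rapamycin mouse 3, rapamycin mouse 4 or any 25-week control left out instead, 0 members and 0% of all tested probes passed.

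Aqp2 differed between rapamycin mice and 25-month controls by -0.59 ± 0.19 (limma adjusted p = 0.29) and Aqp3 by -0.66 ± 0.21 (adjusted p = 0.29), Slc12a3 by -0.30 ± 0.14 (adjusted p = 0.44) and Fxyd4 by -0.02 ± 0.14 (-0.34 to 0.30). The kinase genes Wnk1 (0.16) and Wnk4 (0.30), the ENaC genes Scnn1a (0.04), Scnn1b (0.32) and Scnn1g (-0.10), and the intercalated cell genes Foxi1 (0.27), Slc26a4 (0.31), Atp6v1b1 (0.26) and Slc4a1 (-0.04) all had limma adjusted p-values above 0.05. Over the list, 2 members were higher and 11 lower in rapamycin mice without overlap, where 12.9% and 11.6% of all tested probes were. Without rapamycin mouse 2, the summed level of proximal tubule markers was 81870 to 87436 in rapamycin mice and 63174 to 81540 in 25-month controls, and that of macrophage markers 5939 to 7636 in rapamycin mice and 4696 to 8576 in 25-month controls. Without that array 0 genes of any other marker list passed. The groups did not overlap for 4 of 7 tubular injury, 4 of 8 endothelial, 4 of 8 fibroblast and matrix and 5 of 20 proximal tubule markers, all higher in rapamycin mice, and for 2 of 20 proximal tubule, 1 of 13 macrophage and 1 of 3 neutrophil markers, lower in rapamycin mice. All 8 endothelial differences were positive (median 0.21), and the 3 neutrophil markers had a median of -1.32. Summed neutrophil levels were 61.3 to 112 in rapamycin mice and 117 to 650.2 in 25-month controls. The parts of these lists in the differences were not tested.

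In the comparison of rapamycin mice with 25-month controls, including rapamycin mouse 2 changed the values but not the calls, which stayed at 0. Without its array, 6 members moved by over 0.5, all toward higher, and 9 changed sign. Hsd11b2 measured 8.86, 5.32, 8.65 and 8.46 in rapamycin mice against 8.83 and 8.89 in 25-month controls, and its difference was -1.04 with 10 arrays and -0.20 with 9. Wnk4 measured 6.90, 4.43, 7.41 and 7.69 in rapamycin mice against 7.13 and 6.93 in 25-month controls, with differences of -0.42 and 0.30. On the array of rapamycin mouse 2 neither gene was detected (array detection p-values 0.055 for Hsd11b2 and 0.46 for Wnk4), so 5.32 and 4.43 are background values. Over the 7 genes of the distal convoluted and connecting tubule, the median deviation of rapamycin mouse 2 from the 25-week controls was -2.12, and the other rapamycin arrays had 0.08 to 0.40.

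**Figure D4:**
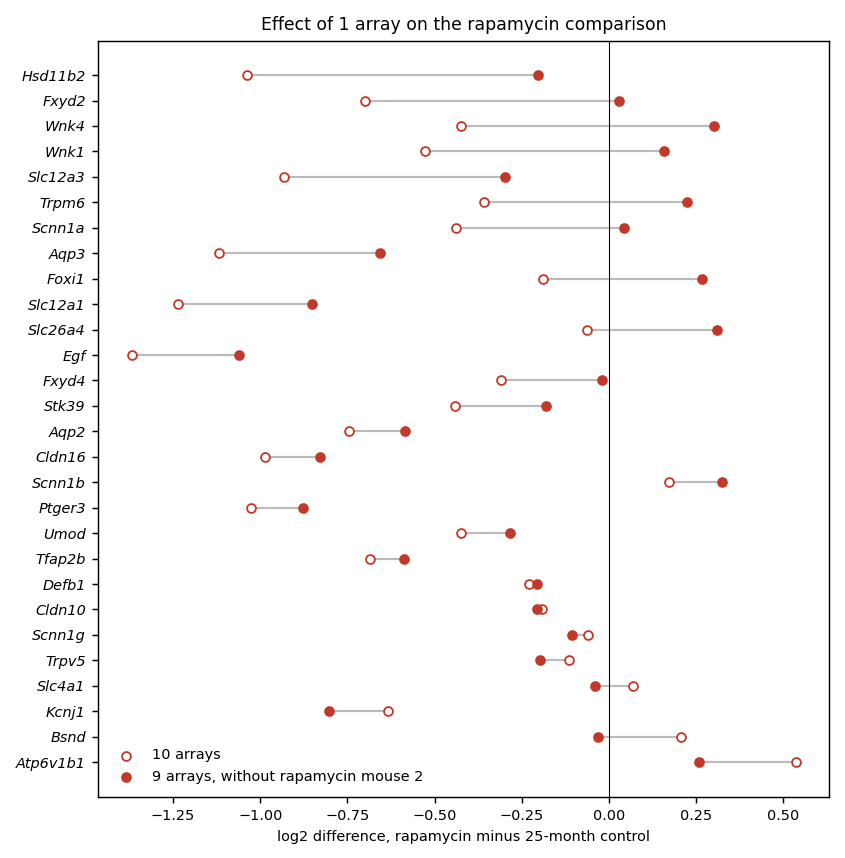
Log2 difference, rapamycin minus 25-month control, of the 28 tested genes with all 10 arrays (hollow) and without rapamycin mouse 2 (filled), ordered by the shift. The shift was largest for Hsd11b2, Fxyd2 and Wnk4, and the sign changed for 9 genes.

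The comparison of rapamycin mice with 25-week controls gave 0 calls with 10 arrays, where 0.369% of all tested probes passed, and 2 members then reached an unadjusted p under 0.05, where 13.2% of probes did. With 9 arrays, 2 of 28 members passed as higher in rapamycin mice and 0 as lower, where 5.31% of all tested probes were higher and 3.16% lower. These were Fxyd4 (log2 0.48 ± 0.12, limma adjusted p = 0.036) and Aqp2 (0.57 ± 0.16, adjusted p = 0.049). The Fxyd4 groups did not overlap, whereas Aqp2 in rapamycin mouse 4 overlapped the 25-week controls. The member share of 7.14% was near that of all probes.

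Slc12a3 came close to the threshold, at 0.42 ± 0.12 (limma adjusted p = 0.050), with rapamycin mice 1, 3 and 4 above all 25-week controls. Wnk4 differed by 0.57 ± 0.17 (limma adjusted p = 0.060) and Wnk1 by 0.29 ± 0.11 (adjusted p = 0.12). Thick limb genes lay near 0 in this comparison, with a median of 0.07: Slc12a1 differed by 0.05 ± 0.20 (-0.39 to 0.48), Kcnj1 by -0.03 ± 0.11 (-0.26 to 0.20) and Umod by 0.19 ± 0.11 (-0.04 to 0.43). Egf differed by -0.44 ± 0.19 (limma adjusted p = 0.18). All 4 Cldn10 probes had negative differences, and 2 of them passed as lower, by 0.45 and 0.82 on the log2 scale. With 9 arrays, macrophage markers were higher in rapamycin mice for 12 of 13 genes, tubular injury markers for 6 of 7 and fibroblast and matrix markers for 5 of 8. Lower were 2 of 3 erythroid and 2 of 20 proximal tubule markers. Of all tested probes, 5.31% were then higher and 3.16% lower. With 10 arrays the same lists gave 2 of 13, 3 of 7 and 1 of 9 higher, and 0 of 3 and 0 of 20 lower. The shares of all tested probes were 0.297% higher and 0.0724% lower in that fit. The part of these lists in the values of the members was not tested.

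**Figure D5:**
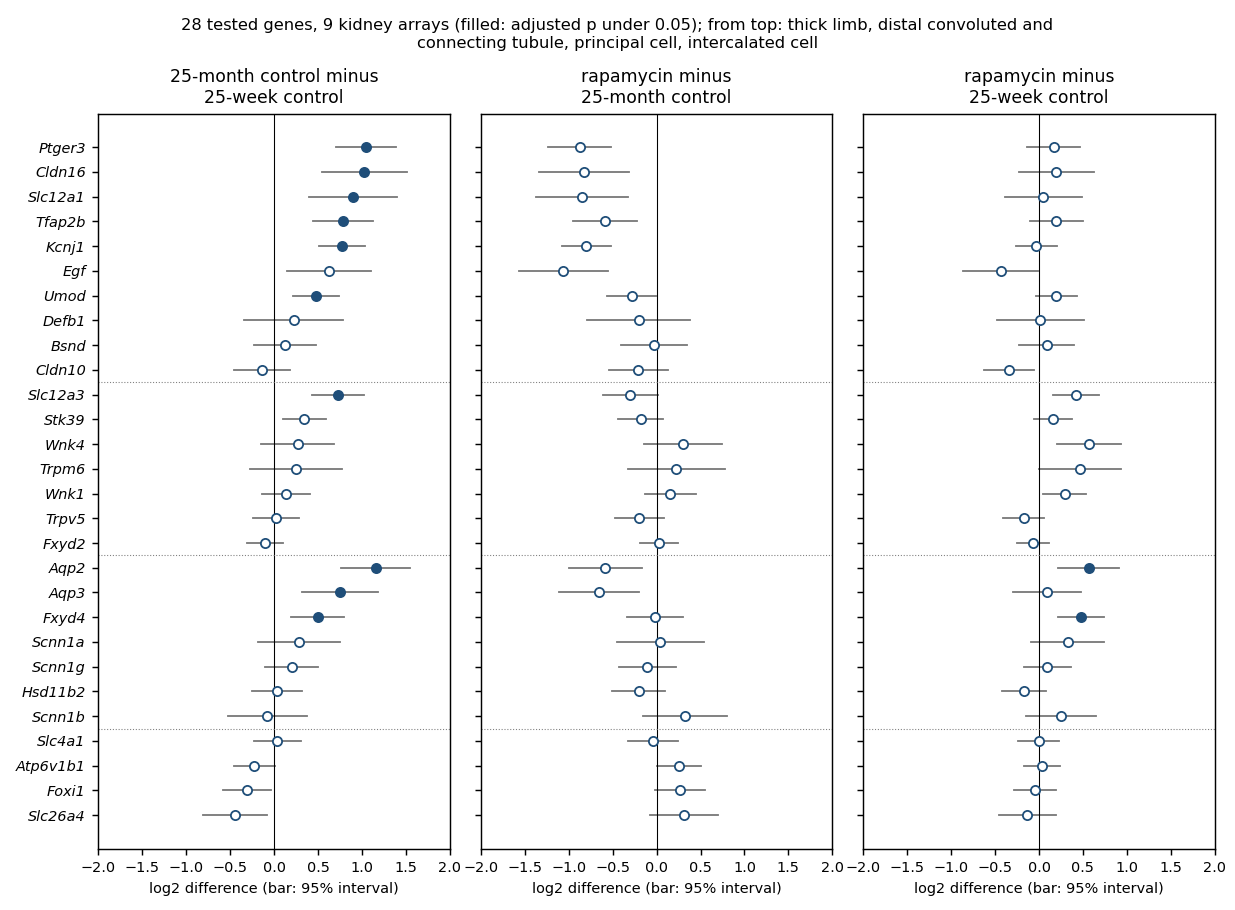
Log2 differences with 95% intervals for the 28 tested genes on 9 kidney arrays: 25-month minus 25-week control, rapamycin minus 25-month control, and rapamycin minus 25-week control. Filled points passed at an adjusted p under 0.05: 10 in the first panel, 0 in the second and 2 in the third.

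A wider list of 81 other genes of the distal nephron was read in the same fit, and 57 of them were tested. In the age comparison with 9 arrays, 10 were higher in 25-month controls (17.5%) and 1 lower (1.75%), where 5.33% of all tested probes were higher and 4.3% lower. In the comparison of rapamycin mice with 25-week controls, also with 9 arrays, 9 were higher (15.8%) and 1 lower (1.75%), where 5.31% and 3.16% of all tested probes were. Rapamycin mice against 25-month controls gave 0. With 10 arrays the counts were 0 for age, 0 for rapamycin and 1 for rapamycin mice against 25-week controls, Tsc22d3, where 0.0942%, 0% and 0.369% of all tested probes passed.

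Tmem52b was higher in 25-month than in 25-week controls by 0.86 ± 0.10 (limma adjusted p = 0.0018, 9 arrays), Sgk1, the aldosterone-induced kinase, by 0.82 ± 0.12 (adjusted p = 0.0038), Ppp1r1a, a phosphatase inhibitor, by 0.76, Grhl2, a transcription factor of epithelia, by 0.61 and Sostdc1, a secreted antagonist of BMP signals, by 0.90. Car12, a carbonic anhydrase, fell by 0.56 on the log2 scale. In rapamycin mice against 25-week controls, the genes with the smallest p were Tsc22d3 (1.22 ± 0.15), Sgk1 (0.79 ± 0.11), Per1 (1.47 ± 0.22), Car12 (-0.64 ± 0.10), Krt8 (0.65 ± 0.11) and Tmem52b (0.46 ± 0.09). Tsc22d3, Sgk1 and Per1 are known to respond to corticosteroids, and Per1 is also a clock gene. Sources used here do not give the hour of tissue collection, and its part in these values was not tested. Sgk1 measured 11.53, 10.41, 11.38 and 11.30 in rapamycin mice, 11.43 and 11.43 in 25-month controls, and 10.55, 10.48, 10.82 and 10.59 in 25-week controls. Rapamycin mice 1, 3 and 4 lay near the 25-month controls, with a difference of -0.03 ± 0.13, and all of these lay above the 25-week controls.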

How the data were processed

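Per the file headers, the deposited non-normalized table holds a signal intensity on a linear scale for each probe and array, with no background subtracted and no normalization between arrays, and a detection p-value for each. A second deposited matrix of background-subtracted intensity by the authors served as an alternative, and its normalization was not given among the sources used. The submitters' processing notes name GenomeStudio 2011.1. Groups came from source name and age. The 10 kidney arrays, and then 9 without rapamycin mouse 2, were background-corrected and quantile-normalised with neqc (limma 3.58.1, R 4.3.3, offset 16) on a log2 scale. Probes with detection p-values under 0.05 on at least 2 kidney arrays were kept, 13805 with 10 arrays and 13651 with 9. A model with 1 mean per group was fitted with lmFit and eBayes, so the 2 controls of 25 months share the spread of the other groups. The R package data.table (version 1.17.8) read the files, and figures were drawn in Python 3.11.15 with pandas 2.3.3 and matplotlib 3.10.9. The number of arrays limits precision, as arrays give no counting depth. The code was tested on simulated data.

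Members, gene lists and tests were chosen with earlier results of these data known. The lists were split by segment, with a wider list of distal nephron genes and lists for other cell types. Values per array are given for the members that passed in any fit, and for Egf and Atp6v1b1, which had the smallest p in the rapamycin comparison among the rest. Of the wider list, up to 6 passing genes per comparison with the smallest p are named, and other genes were named beside a result after their values were seen. Alternatives were background correction, median scaling, the authors' matrix, detection filters, moderation, array weights, the compared groups alone, a replicate block and leaving out each mouse. Chip identifiers were not used here, so slide was not tested as a batch.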

Additional observations from a re-analysis of the deposited data

Results flagged for a closer look

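Within groups of 4 mice, a value was singled out where its gap to the nearest other mouse, divided by the range of the group, was above Dixon's 95% critical value for 4 samples. Of 56 groups (28 members in rapamycin mice and in 25-week controls) 8 did, and chance alone would do so for about 1 in 20 groups. Rapamycin mouse 2 held 6 of them. Its array was the lowest of the rapamycin group for Fxyd2 (10.45), Slc12a3 (9.47), Stk39 (6.95), Wnk1 (7.87) and Hsd11b2 (5.32), and the highest for Atp6v1b1 (6.47). On that array Hsd11b2 was not detected, and Atp6v1b1 had the lowest intensity of the kidney arrays before normalisation. The others were Atp6v1b1 in 25-week control 2, the highest of its group at 5.43, and Tfap2b in 25-week control 4, the lowest of its group at 7.86. All are normalised log2 intensities from the 10 kidney arrays.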

How the results depend on the processing

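Counts are of the 28 members passing limma at an adjusted p under 0.05, and the share of all tested probes that passed in the same fit is in parentheses. With 10 arrays, array weights gave 11 for age (10.6% of probes) and 6 for rapamycin mice against 25-week controls, 4 higher and 2 lower (21.2%). The control arrays alone then gave 12 for age, 11 higher and 1 lower (10.8%). Array weights also turned the difference of Slc12a3 between rapamycin mice and 25-week controls to 0.48 (adjusted p = 0.0139), against -0.21 without weights. With 9 arrays, rapamycin mice against 25-week controls gave 4 with median scaling (10.5%), 1 with the authors' matrix (7.57%) and 0 without a detection filter (3.24%). They gave 4 with a variance trend and robust moderation (10.1%) and 7 with array weights, 5 higher and 2 lower (20.5%), against 2 (8.47%). Age gave 7 without a detection filter (3.71%) to 12 with the control arrays alone, 11 higher and 1 lower (10.3%), against 10 (9.63%). Rapamycin gave 0 (0%). Median scaling moved the split over all probes for age to 907 higher and 388 lower, against 728 and 587, and for rapamycin mice against 25-week controls to 1185 and 242, against 725 and 431. At 10 arrays it shifted the median of all probes for rapamycin to -0.12. The cause of these changes was not tested.

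Leaving out 1 mouse at a time gave 0 to 10 for age and 0 to 2 for rapamycin mice against 25-week controls with 10 arrays, the upper values without rapamycin mouse 2 (9.63% and 8.47%). With 9 arrays it gave 1 to 12 for age, 0 to 5 for rapamycin and 0 to 8 for rapamycin mice against 25-week controls. The 1 came without 25-month control 1 (0.645%), and the 12, 5 and 8 without rapamycin mouse 1 (11.9%, 1.14% and 17.1%). Without rapamycin mouse 1, the 12 were 11 higher and 1 lower, the 5 all lower, and the 8 were 6 higher and 2 lower. A group left with 1 control mouse is assumed to vary like the other groups. The replicate numbers belong to different mice, and of 8 same-numbered pairs 1 correlated above 0.1. A replicate block gave 8 for age (8.56%), 0 for rapamycin (0%) and 0 for rapamycin mice against 25-week controls (4.56%) with 9 arrays, and 0 for each with 10.

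The limits are 2 control mice of 25 months, which set both the age and the rapamycin differences, and 3 usable treated arrays. Age and any other way in which the cohorts differed cannot be told apart.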
